A study of Homo sapiens with 4 samples.

Results

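The interleukin-1 (IL-1) family was examined in lapatinib-resistant breast cancer cells through 10 genes of its cytokines and receptors: IL1A, IL1B, IL1RN, IL1R1, IL1R2, IL1RAP, IL1RL1, IL18, IL18R1 and IL33. They were taken by name, and their 16 array probes were found through the RefSeq accession that the files give for each probe. The 10 genes are part of the 16422 genes named on the arrays in this way. Total RNA of 4 cultures was profiled, each on 1 array. They were the parental lines SkBr3 and BT474 and, for either line, 1 clone resistant to lapatinib. SkBr3 and BT474 are established HER2-positive human breast cancer cell lines. The parental cells are labeled as vehicle-treated. The resistant cells, here SkBr3/Lap and BT474/Lap, were selected in lapatinib, which blocks the kinases of EGFR and HER2, at concentrations raised stepwise to at most 1 μM, and are labeled as lapatinib-treated. Each resistant group is a single clone labeled as exposed to the drug, so that resistance, exposure to lapatinib and the choice of clone cannot be told apart. The sample labels give clone number 3 for SkBr3/Lap and 6 for BT474/Lap, whereas the names of the deposited files give 6 and 3.

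IL-1α and IL-1β, the products of IL1A and IL1B, are inflammatory cytokines that act through the receptor IL1R1 and its partner chain IL1RAP, from which MYD88 and the IRAK kinases pass the signal to NF-κB. IL1RN encodes the receptor antagonist, and IL1R2 a decoy receptor that binds IL-1 without signaling. IL18 and IL33 are related cytokines with receptors of their own, IL18R1 and IL1RL1. IL1B is both an activator of NF-κB and one of its targets, and NF-κB activity in resistant cells was the subject of the study.

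The arrays measured 4 of the 10 genes in every group. IL1R1, IL1R2, IL1RAP and IL18 had a signal that the scanner software marked as well above background on all 4 arrays. IL1A, IL1RL1 and IL18R1 were not well above background on any array. IL1B was so only in SkBr3/Lap cells, and IL1RN and IL33 on each array but that of SkBr3. The processed signals given below are intensities after background subtraction, which were not scaled between arrays. The 75th percentile of all probes was 1115 for SkBr3 and 2074 for its clone, 1158 for BT474 and 1681 for its clone, and on each array signals counted as well above background began between 13.3 and 16.01. Fold changes were therefore taken after each array's 75th percentile had been subtracted on the log2 scale. Where 1 array of a pair was too dim for that mark, the fold change is a limit, written as "at least". Such a limit holds for this way of computing the values only. The BT474 and BT474/Lap arrays lay on the same slide. The SkBr3/Lap array lay on a slide of its own, so that slide and resistance cannot be told apart in SkBr3.

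**Figure D1:**
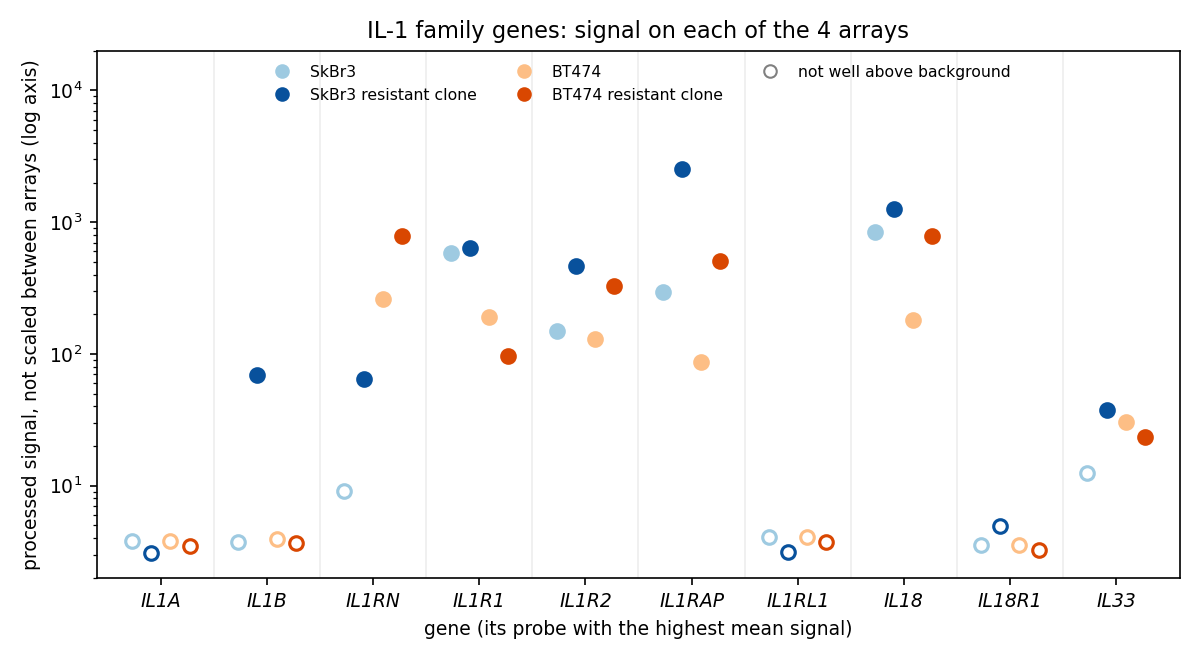
Processed signal of the 10 IL-1 family genes on each of the 4 arrays, by the probe of each gene with the highest mean signal, on a log axis and before scaling between arrays. Filled points were marked as well above background and open points were not. IL1A, IL1RL1 and IL18R1 have open points only, and IL1B has 1 filled point, at 69.7 in SkBr3/Lap.

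Among the receptor genes, IL1RAP, the shared co-receptor chain, was higher in both clones. Its probe with the highest signal had a signal of 292.9 in SkBr3 and 2534 in SkBr3/Lap, and of 87.1 in BT474 and 511 in BT474/Lap. The clone was thus above its parental cells in each line. After scaling, the SkBr3/Lap level was 4.65-fold and the BT474/Lap level 4.04-fold that of the parental cells, log2 fold changes of 2.22 and 2.02. With 1 array per group, these changes have no check by replicates.

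The other IL1RAP probes did not all show the same. A pair of them, assigned like the first to transcript NM_002182, which encodes the membrane-bound co-receptor, were near background in the parental cells. One of them went from 12.8 to 208.3 in the SkBr3 pair, at least 6.995-fold, and from 10.2 to 37.0 in the BT474 pair, at least 1.60-fold. The other had signals of 4.52 and 127.5 in the SkBr3 pair, at least 4.28-fold, while its signals of 4.47 and 19.3 in the BT474 pair were both not well above background. With normexp correction the limits in SkBr3/Lap fell, on the log2 scale, from 2.81 to 1.58 for the former probe and from 2.10 to 1.13 for the latter. The fourth IL1RAP probe is assigned to NM_134470, the transcript of a soluble form of the co-receptor that lacks the membrane anchor. Its signals were 477 and 897.7 in the SkBr3 pair and 43.7 and 70.5 in the BT474 pair, well above background on all 4 arrays. Its scaled log2 fold changes were 0.02 for SkBr3/Lap and 0.15 for BT474/Lap, and the alternative ways of computing the values gave -0.04 to 0.17 and -0.06 to 0.26. The brightest NM_002182 probe, at 2.22 and 2.02, thus changed more than the NM_134470 probe in both clones. In SkBr3/Lap the dimmer NM_002182 probes gave limits only, which stayed at 1.13 or more, above the NM_134470 values. In BT474/Lap the former of them had only a limit, 0.68 on the log2 scale, and 0.20 to 0.79 under the alternatives. The latter had no value there. Among probes measured on both arrays of a pair, the difference therefore rests on the brightest NM_002182 probe alone. No file used here gives the position of the probes in the transcripts.

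IL1R1, the signaling receptor for IL-1, was lower in BT474/Lap. Its brighter probe had signals of 192.2 in BT474 and 96.5 in BT474/Lap, 2.89-fold lower after scaling, and its dimmer probe 76.3 and 47.9, 2.31-fold lower. In the SkBr3 pair the brighter probe gave 582 and 636, 1.70-fold lower after scaling (log2 fold change -0.77), and the dimmer probe 90.2 and 186.6, with a log2 fold change of 0.15. The probes of IL1R1 thus had the same direction in BT474/Lap and opposite signs in SkBr3/Lap. The level in parental SkBr3 was 3.15-fold that in parental BT474 by the brighter probe and 1.23-fold by the dimmer one.

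IL1R2, the decoy receptor, was higher in both clones, by similar amounts with the scaling used here. Its signals were 148.6 in SkBr3 and 465 in SkBr3/Lap, and 130.7 in BT474 and 327 in BT474/Lap. The scaled values were 1.68-fold and 1.73-fold higher, below the 2-fold criterion used for counting, and the parental lines differed by 1.18-fold. The alternative ways of computing the values gave log2 fold changes of 0.66 to 0.91 for SkBr3/Lap and 0.49 to 0.90 for BT474/Lap. The second IL1R2 probe was not well above background on any array, with signals of 4.27 to 14.6. IL1RL1, the receptor for IL-33, had signals of 3.15 to 4.12, and the 2 IL18R1 probes of 3.10 to 4.94, so that no fold change can be given for either gene.

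**Figure D2:**
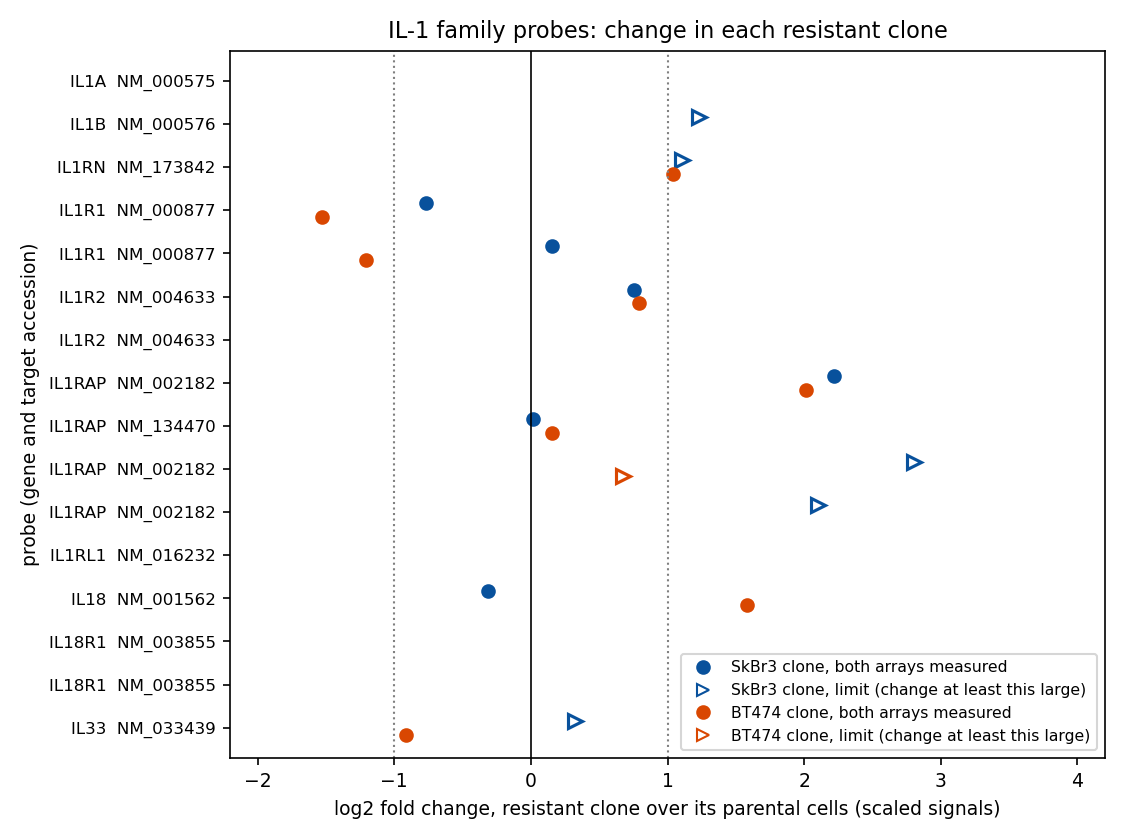
Log2 fold change of each of the 16 probes in the 2 clones, each over its own parental cells, with the target accession of the probe. Filled circles were measured on both arrays, open triangles are limits, and rows without a symbol had no array of the pair well above background or a limit under 1-fold. The dotted lines mark 2-fold. The NM_002182 probes of IL1RAP lie to the right of 0 wherever they have a value, and the NM_134470 probe lies near 0 in both clones.

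Among the cytokine genes, IL1B was seen only in SkBr3/Lap. This probe is spotted 10 times on each array, which gives a check of the spread within an array. Its spots in SkBr3 had signals of 3.25 to 4.71, those in SkBr3/Lap of 64.8 to 76.0 and those in BT474 of 3.28 to 6.42. In BT474/Lap, 9 spots ran from 3.03 to 5.14, and the remaining spot, at 20.8, was flagged by the software as a population outlier. All 10 spots were well above background in SkBr3/Lap, none in SkBr3 or BT474, and in BT474/Lap only the flagged spot. The SkBr3/Lap spots did not overlap with those of SkBr3. IL1B was at least 2.34-fold higher in SkBr3/Lap than in SkBr3, and no fold change can be given for BT474/Lap. This limit, 1.23 on the log2 scale, was 0.54 to 1.39 under the alternative ways of computing the values. Its signal in SkBr3/Lap, 69.7, was under the limit of 100 that was used to keep genes for counting. IL1A, also spotted 10 times, had signals of 2.78 to 4.38 over the spots not flagged. A flagged IL1A spot in SkBr3/Lap reached 5.07.

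IL18 had a higher level in BT474/Lap than in BT474 and a slightly lower one in SkBr3/Lap than in SkBr3. Its 10 spots had a median signal of 841 in SkBr3 (lowest 799, highest 885), 1261 in SkBr3/Lap (1196 to 1341), 184.7 in BT474 (163.7 to 192.7) and 803 in BT474/Lap (704 to 832). Before scaling, the spots overlapped in neither pair, and those of SkBr3/Lap lay above those of SkBr3, the reverse of the scaled change. How often this held for other probes was not counted. On the scaled log2 scale the levels were -0.40 ± 0.05 in SkBr3, -0.71 ± 0.05 in SkBr3/Lap, -1.09 ± 0.08 in BT474/Lap and -2.67 ± 0.06 in BT474 (SD, n = 10 spots of 1 array). In this order each neighboring pair of levels differed by more than the SDs of the spots, which leave out the spread between cultures. IL18 was 2.99-fold higher in BT474/Lap than in its parental cells and 1.24-fold lower in SkBr3/Lap. The parental level in SkBr3 was 4.82-fold that in BT474, and that of the clones differed by 1.30-fold.

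**Figure D3:**
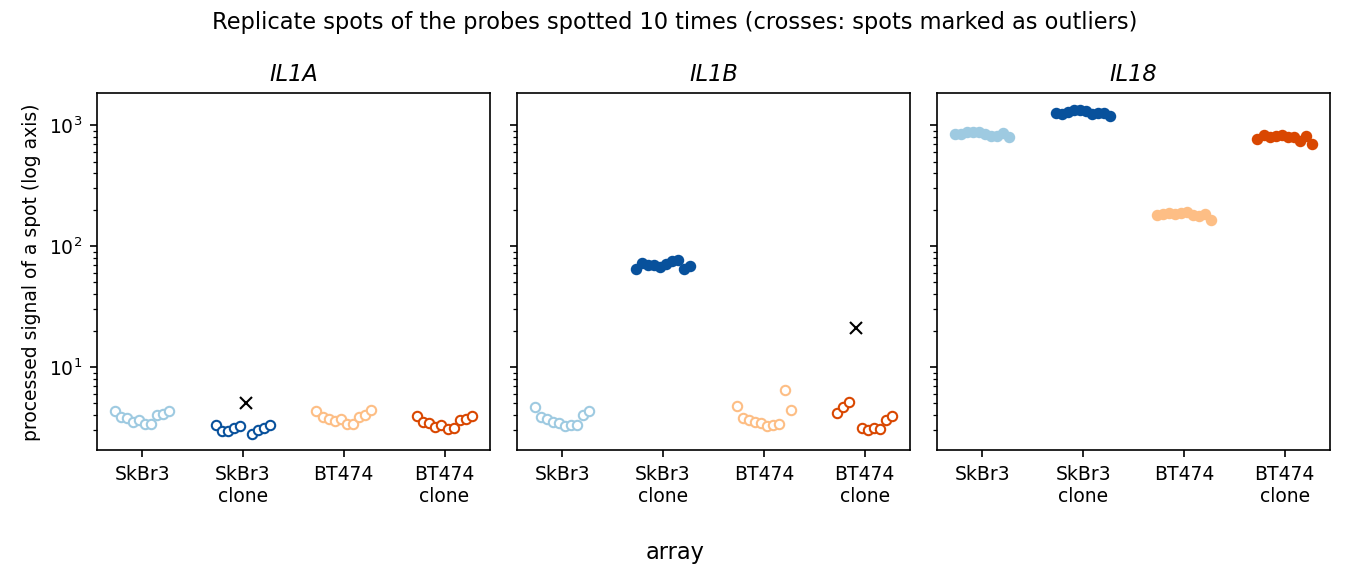
Processed signals of the 10 spots of the IL1A, IL1B and IL18 probes on each array, on a log axis. Filled circles are spots well above background, open circles are spots that were not, and crosses are spots flagged as outliers. The 10 IL1B spots in SkBr3/Lap lie between 64.8 and 76.0, above every IL1B spot on the other arrays, and the flagged IL1B spot in BT474/Lap lies at 20.8.

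IL1RN, the receptor antagonist, was higher in both clones by about the 2-fold criterion. Its only probe had signals of 9.11 in SkBr3 and 64.1 in SkBr3/Lap, and of 262.7 in BT474 and 783 in BT474/Lap. The difference was at least 2.15-fold in the SkBr3 pair and 2.06-fold in the BT474 pair. The parental lines differed more than either clone from its parent, as BT474 was at least 15.8-fold above SkBr3. Under some alternative ways of computing the values it fell below 2-fold, with log2 fold changes of 0.40 to 1.26 for SkBr3/Lap and 0.80 to 1.15 for BT474/Lap. IL33, an alarmin of epithelial and endothelial nuclei, had signals of 12.5, 37.3, 30.7 and 23.6 for SkBr3, SkBr3/Lap, BT474 and BT474/Lap. The SkBr3 pair differed by at least 1.25-fold, upward, and BT474/Lap was 1.88-fold lower.

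Of the 10 genes, 5 had a signal of at least 100 on at least 1 array and were counted, namely IL1RN, IL1R1, IL1R2, IL1RAP and IL18. In SkBr3/Lap, 2 of the 5 (IL1RAP and IL1RN) were at least 2-fold higher and 0 were at least 2-fold lower. By the same rule 13.9% of 11770 named genes were higher and 13.3% lower. In BT474/Lap, 3 of the 5 (IL1RAP, IL1RN and IL18) were higher and 1 (IL1R1) was lower, against 8.79% and 5.3% of 11821 named genes. With the array median in place of the 75th percentile, the higher share of the named genes changed at least 2-fold in BT474/Lap was 45.5% in place of 62.4%, and IL1RN was not among the members counted. IL1RAP and IL1RN were higher in both clones, as were 299 of 11455 named genes (2.61%). IL1RN passed the signal limit through BT474 and BT474/Lap cells. Its call in the SkBr3 pair set a signal of 64.1 in SkBr3/Lap, under that limit, against a SkBr3 signal not well above background. In general, a gene that passes through the group in which it is high is more likely to differ.

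The cell lines were also taken as replicates of resistance in limma, with cell line as a block and 1 residual degree of freedom. Of 25927 probes, 901 (3.48%) had an unadjusted p under 0.05 and 0 passed after Benjamini-Hochberg adjustment. Among the 9 IL-1 family probes in this fit, 4 had an unadjusted p under 0.05, 3 of them probes of IL1RAP and 1 of IL1RN. The 2 dimmer IL1RAP probes among them reached a signal of 100 only in SkBr3/Lap, the group in which they were high, and 1 of these was not well above background on the other 3 arrays, so that their p-values count for little. The brightest IL1RAP probe had a log2 fold change of 2.12 ± 0.42 (SE), higher in 2 of 2 clones, with an unadjusted p of 0.0103 and an adjusted p that limma gave as 1 after rounding. The soluble IL1RAP transcript had 0.08 ± 0.42 with an unadjusted p of 0.85. The fit used the signals of dim probes as they were, not the limits.

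To show the sequence before genes of the family described above, the 250 bases before a transcript start of IL1RAP, IL1B, IL1RN and IL1R2 are given, from RefSeq on GRCh38.p14. IL18 had no entry. Capitals mark matches to the NF-κB consensus, the AP-1 motif TGANTCA or the TATA box TATAAA. Both strands were searched for the first 2 motifs and the strand of the gene for the third. IL1RN and IL1R2 have several starts, and the window with a TATA box was chosen for each.
IL1RAP, chr3:190513835-190514084, plus strand: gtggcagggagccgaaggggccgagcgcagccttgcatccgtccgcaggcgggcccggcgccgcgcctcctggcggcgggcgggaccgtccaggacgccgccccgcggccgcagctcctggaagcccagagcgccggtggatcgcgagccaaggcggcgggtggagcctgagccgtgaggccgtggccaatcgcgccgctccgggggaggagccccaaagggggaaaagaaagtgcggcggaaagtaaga
IL1B, chr2:112836780-112837029, minus strand: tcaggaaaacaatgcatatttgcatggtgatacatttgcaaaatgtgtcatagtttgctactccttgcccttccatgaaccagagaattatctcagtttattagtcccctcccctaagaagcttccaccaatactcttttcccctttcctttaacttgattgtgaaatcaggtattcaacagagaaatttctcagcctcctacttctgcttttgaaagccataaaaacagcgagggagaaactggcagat
IL1RN, chr2:113127348-113127597, plus strand: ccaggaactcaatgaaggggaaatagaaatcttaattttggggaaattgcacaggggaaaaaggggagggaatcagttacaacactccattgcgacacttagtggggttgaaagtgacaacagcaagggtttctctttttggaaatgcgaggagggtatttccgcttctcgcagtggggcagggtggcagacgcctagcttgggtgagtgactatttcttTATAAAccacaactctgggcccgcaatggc
IL1R2, chr2:101991710-101991959, plus strand: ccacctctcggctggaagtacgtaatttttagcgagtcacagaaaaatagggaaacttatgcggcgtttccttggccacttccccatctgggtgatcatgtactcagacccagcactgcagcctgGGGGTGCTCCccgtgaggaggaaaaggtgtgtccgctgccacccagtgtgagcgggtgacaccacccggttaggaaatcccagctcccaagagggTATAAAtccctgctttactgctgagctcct
The IL1RAP and IL1B stretches hold no match. The IL1RN stretch holds a TATA box, and the IL1R2 stretch a TATA box and an NF-κB match. Of the other windows of these genes, 1 of IL1RN held an AP-1 match, and the remaining IL1RN window and the other IL1R2 window held none. With 50 bases after the start added to each window, 9 of the 10 genes had 19 windows, some of them overlapping. Of these, 2 held the NF-κB consensus, 4 the AP-1 motif and 4 the TATA box. Among all 35116 windows the shares were 11.3%, 7.71% and 7.33%. A match is a string of letters, and no binding was measured.

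Most of the family lies in 2 clusters on chromosome 2, with 9 ligand genes from IL1A to IL1RN and 6 receptor genes from IL1R2 to IL18RAP. The genes of a cluster did not move together. Among the ligands, IL36RN, which encodes the antagonist of the IL-36 receptor and is no member of the 10, stood out. The SkBr3 signal of 10.8 stood against 2774 in its clone, at least 93.1-fold higher, and the BT474 signal of 44.4 against 12.3, at least 4.396-fold lower. The second IL36RN probe gave 3.82 and 574.6 in the SkBr3 pair and was not well above background in either BT474 sample. IL36A and IL36B were not well above background on any array, and IL36G only in SkBr3/Lap, with a signal of 33.2. IL37 and IL1F10 were well above background on all 4 arrays at signals of 16.7 to 81.3, and their log2 fold changes lay between -0.43 and 0.24. In the receptor cluster, IL1R2 was above 0 and IL1R1 below 0 in both clones by their brightest probes. IL1RL2, the IL-36 receptor, changed by -0.32 (log2) for SkBr3/Lap and by 0.08 for BT474/Lap.

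**Figure D4:**
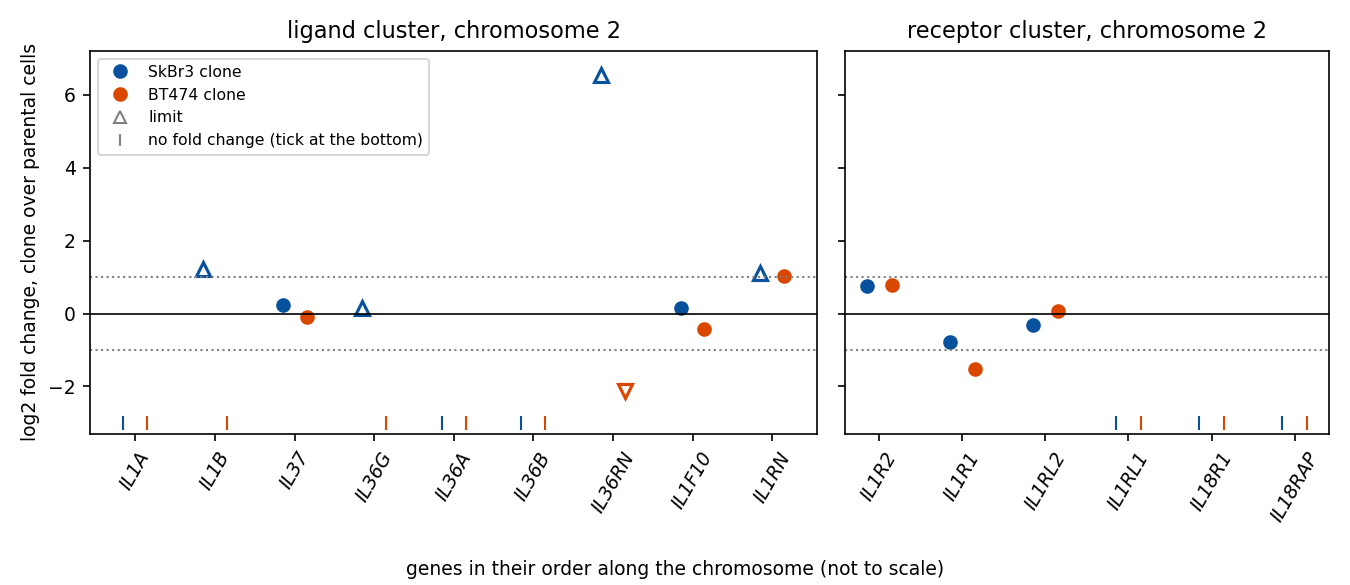
Log2 fold change of the genes of the 2 IL-1 family clusters on chromosome 2, in their order along the chromosome and not to scale, for SkBr3/Lap and BT474/Lap. Circles were measured on both arrays, open triangles are limits, and ticks at the bottom mark genes with no fold change. IL36RN has a limit of 6.54 in SkBr3/Lap and of -2.14 in BT474/Lap, and no other gene of the clusters lies beyond 2 in either clone.

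Of 12 other IL-1 family ligands and receptors, 2 passed the signal limit. IL36RN was higher in SkBr3/Lap, the only group through which it passed the limit, and lower in BT474/Lap. SIGIRR, an inhibitory receptor of the family, changed by less than 2-fold in both clones. Among 16 genes of receptor signaling, 13 passed the limit, and their median log2 fold changes, -0.09 for SkBr3/Lap and -0.06 for BT474/Lap, lay close to those of all named genes, -0.05 and -0.08. In SkBr3/Lap 1 gene was higher, IRAK1 (2.30-fold), and 1 was lower, IRAK4 (2.14-fold). In BT474/Lap 1 was higher, PELI1 (2.18-fold), a ubiquitin ligase that acts on the IRAK kinases, and 0 were lower. Of all named genes, 13.9% were higher and 13.3% lower in SkBr3/Lap, and 8.79% and 5.3% in BT474/Lap. The counts of this list and of the lists below are to be read against these shares. MYD88, the adaptor of the receptors, was 1.12-fold and 1.18-fold lower.

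Of 14 genes of cytokine processing, 10 passed the limit and 8 had a value in each clone. In SkBr3/Lap 4 were higher and 2 lower, with a median log2 fold change of 1.05. Of the 4, CASP1 and CARD18 passed the limit only through SkBr3/Lap, and among the 6 genes well above background on all 4 arrays 2 were higher and 2 lower, with a median of -0.13. CASP1, the protease that cleaves the IL-1β and IL-18 precursors, went from 7.78 to 115.6, at least 3.88-fold. CARD18, an inhibitor of caspase-1, went from 5.16 to 346, at least 11.6-fold. CASP4 and CASP5 were 4.12-fold and 4.96-fold higher. They are close paralogs, and whether their probes tell them apart is not known from the files. In BT474/Lap 1 was higher, NLRP3 (2.31-fold), which passed the limit only there, and 2 were lower, the inflammasome adaptor PYCARD (3.54-fold) and the pore-forming GSDMD (14.2-fold), with a median of -0.15. The GSDMD signal was 216.6 in BT474 and 22.1 in BT474/Lap, where signals well above background began at 14.6. The genes lower in SkBr3/Lap were GSDMD (3.43-fold) and the protease gene CAPN2 (2.03-fold). Neither BT474 sample had CASP1 well above background.

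Of 25 genes known to respond to IL-1, many of them also NF-κB targets, 15 passed the limit. In SkBr3/Lap all 15 had a value, of which 10 were higher and 1 lower, with a median log2 fold change of 2.03. Of the 10, 6 (IL6, ICAM1, SAA1, SAA2, MMP3 and TNFAIP3) passed the signal limit only through SkBr3/Lap, so that the limit favored genes high in that clone. Among the 8 genes well above background on all 4 arrays, 4 were higher and 1 lower, with a median of 0.72. The largest changes of those higher were IL6 (at least 56.9-fold), ICAM1 (31.95-fold), BIRC3 (18.8-fold) and SAA1 (15.9-fold), the last of which is nearly identical to SAA2. IL11 was 9.71-fold lower. Of the genes under the signal limit, CXCL1 was at least 6.46-fold lower in SkBr3/Lap, and CXCL8 and CCL20 were at least 2.45-fold and 2.05-fold higher. The limit for CXCL2 and the changes of CXCL3 and LIF were under 2-fold, and CSF3 and MMP1 had no value there. PTGS2 and CSF2 were not well above background on any array. In BT474/Lap 9 of the 15 had a value, with a median of -0.02. Of these, 2 were higher, BIRC3 (4.12-fold) and CCL2 (at least 3.11-fold), and 2 lower, LCN2 (5.01-fold) and IL11 (2.07-fold). Over the 4 lists together, 16 of 38 genes with a value were higher and 4 lower in SkBr3/Lap, where 13.9% of all named genes were higher and 13.3% lower. Of the 16, 9 passed the signal limit only through SkBr3/Lap. Among the 28 genes well above background on all 4 arrays 7 were higher and 4 lower. Of 11491 named genes well above background on all 4 arrays, 10.13% were higher and 12.71% lower in SkBr3/Lap. The counts among the 8 response genes and the 6 processing genes are likewise to be read against these shares. In BT474/Lap 4 of 32 were higher and 5 lower, where 8.79% of all named genes were higher and 5.3% lower. The lists were chosen with results of these arrays known.

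**Figure D5:**
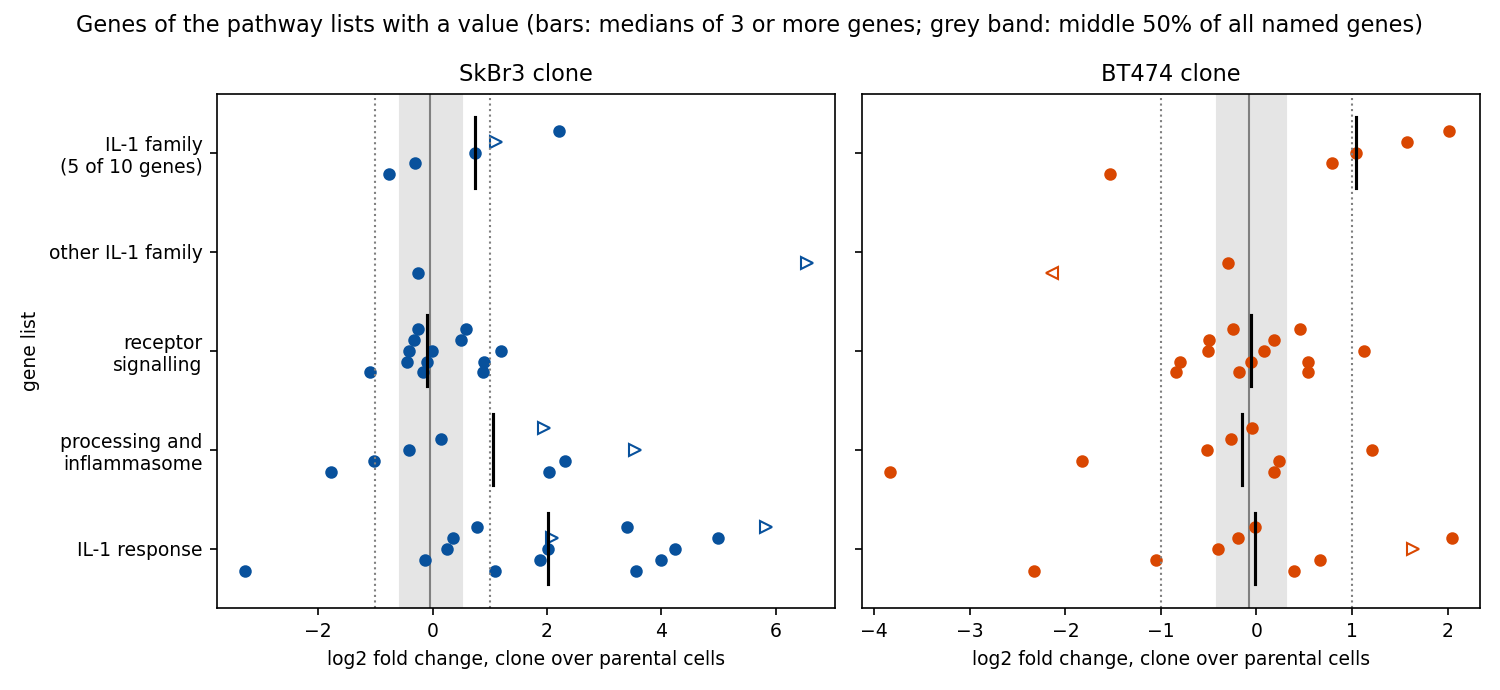
Log2 fold change of the genes with a value in each list, for SkBr3/Lap on the left and BT474/Lap on the right, each with a scale of its own, by the probe of each gene with the highest mean signal among those that passed the signal limit. Circles were measured on both arrays, open triangles are limits, bars are medians of lists of 3 or more genes, and the grey band holds the middle 50% of all named genes. The median of the IL-1 response genes lies at 2.03 in SkBr3/Lap, where 6 of the 15 genes passed the signal limit only through that clone, and at -0.02 in BT474/Lap.

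The genes whose level over the 4 arrays was most like that of a member were sought among 10936 other named genes well above background on all of them, by the Euclidean distance of centered log2 values. For IL1RAP they included MAG and ATP11A, at distances of 0.44 and 0.55. For IL18 they were SYTL4, CITED2 and EEIG2 (0.05, 0.30 and 0.31), for IL1R2 CAMK1D, FAM13A and NR4A2 (0.07, 0.07 and 0.12), and for IL1R1 SRXN1, TCOF1 and ECHDC3 (0.40, 0.45 and 0.46). With 4 arrays, such a likeness rests on few points.

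The samples were checked against markers of their label and of other cell types. Of 9 markers of HER2-positive breast epithelium, 7 to 9 were well above background in each group, and ERBB2 had signals of 118706 to 256346. CDH1, encoding E-cadherin, was not well above background in SkBr3 or SkBr3/Lap. ERBB2 was 3.72-fold lower in SkBr3/Lap and 1.57-fold lower in BT474/Lap. Of 8 leukocyte and macrophage markers with a probe, 4, 5, 3 and 4 were well above background, with the groups in the order SkBr3, SkBr3/Lap, BT474, BT474/Lap. Their summed signals, in units of the array's 75th percentile, were 5.43, 20.6, 0.19 and 0.19. CSF1R made up most of this sum in the SkBr3 pair, with signals of 5913 and 42225, while PTPRC, the leukocyte common antigen, was not well above background on any array (signals of 3.797 to 4.294). Of 6 fibroblast markers, 3 were well above background in SkBr3/Lap and 0 in the other groups, and their summed signals were 0.02, 0.22, 0.02 and 0.02. Of 5 endothelial markers, 2, 4, 1 and 2 were well above background, with sums of 0.18, 0.69, 0.79 and 0.40. In SkBr3/Lap COL3A1 was at least 11.7-fold, PDGFRB at least 2.18-fold, CDH5 8.43-fold and PECAM1 at least 5.38-fold above SkBr3. The dimmer COL3A1 probes gave limits of only 1.03-fold and 1.67-fold there. PECAM1 was at least 2.38-fold higher in BT474/Lap. The endothelial marker VWF fell by its brighter probe from a signal of 892 in BT474 to 594 in BT474/Lap, a 2.18-fold decrease after scaling. For the SkBr3 pair this probe had a log2 fold change of 0.53. The dimmer VWF probe had opposite signs, with -1.69 for the SkBr3 pair and a limit of 0.06 for the BT474 pair. COL1A2, DCN and LUM among the fibroblast markers and KDR among the endothelial ones were not well above background on any array. The part of these differences in the results above was not tested. In RNA of whole cultures, fewer cells with a transcript and less of it per cell cannot be told apart.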

How the data were processed

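The files deposited by the authors for the 4 single-color Agilent arrays (SkBr3, BT474 and their clones) hold a processed signal per spot, an intensity that Feature Extraction 10.1.1.1 gives after background subtraction and detrending. A further deposited table holds log2 values that appear scaled per array and centered per probe. How they were centered is not given in the sources used here. Between clone and parent its differences departed from those computed here by 0.000727 or less in the median, and by up to 0.616 for single probes in SkBr3/Lap and 0.376 in BT474/Lap. No spot was saturated.

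For each probe the log2 signals of its spots were averaged, without spots flagged as outliers where others remained, and the array's 75th percentile over 41000 probes was subtracted. A probe was well above background when at least 50% of its spots were. RefSeq accessions, matched to GRCh38.p14 names, named 23680 probes. A gene was represented by its probe with the highest mean log2 signal and counted when this reached 100 on at least 1 array. A dim signal in a pair was set to the lowest signal well above background on that array if below it. Among probes spotted 10 times, the median SD of spots was 0.06 to 0.07 (log2) at signals of at least 100 and 0.15 to 0.21 below. This covers the spread within an array only, and precision is limited by having 4 arrays. As 13 of the 16 member probes had 1 spot each, only 3 had such a check of their own.

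Genes, lists and tests were chosen with earlier results of these data known. All members and their probes are named, with at most 4 genes per list and clone in order of absolute change, the 3 genes nearest in profile (1 of those of IL1RAP is not reported here), and MYD88, SIGIRR, IL36A, IL36B, IL36G, IL37, IL1F10, IL1RL2 and the marker genes, which were picked afterwards, as was the naming of GSDMD, CAPN2, IL11, SAA2, MMP3, TNFAIP3, SOD2 and NFKBIZ in SkBr3/Lap. CXCL1, CXCL2, CXCL3, CXCL8, CCL20, LIF, CSF2, CSF3, MMP1 and PTGS2 were also named afterwards. The test was limma 3.58.1 in R 4.3.3. Scripts in Python 3.11.15 with pandas 2.3.3 were tested on simulated data. Alternatives were other scalings, normexp on median pixel intensities (offset 50), the deposited log2 table, 16 added to the signal, other treatments of spots, filters and probes, and a 3-fold threshold. The genes FCGR1A, COL1A1 and CARD16 had no probe matched by accession.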

Additional observations from a re-analysis of the deposited data

Results flagged for a closer look

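Opposite signs in the clones, with a change of at least 2-fold in at least 1 of them, drew attention to 8 probes of the 10 genes and the 4 lists. In each case the difference between the clones was not tested, since each group holds 1 array. For IL18 the log2 fold change was -0.31 for SkBr3/Lap but 1.58 for BT474/Lap, and for the dimmer IL1R1 probe 0.15 and -1.21. The brighter IL1R1 probe was lower in both clones. For IL36RN the values are limits, 6.54 in SkBr3/Lap and -2.14 in BT474/Lap. Among the genes of receptor signaling, IRAK1 had 1.20 and -0.85 and IRAK4 -1.10 and 0.54, in the same order of clones. Among the IL-1 response genes, LCN2 had 0.35 and -2.32, NFKBIZ 2.03 and -0.40, and SOD2 1.87 and -0.018, the last of which lay near 0 in BT474/Lap.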

How the results depend on the processing

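Of 20 log2 fold changes of member probes, 18 kept their sign under each of up to 8 alternatives that gave a value. The exceptions were both values of the soluble IL1RAP transcript, which lay near 0. For values that are limits the sign was fixed by the rule, because a limit under 1-fold was left out. The limit of IL33 in SkBr3/Lap was left out in this way with 16 added to the signal. A further 5 values crossed 2-fold under at least 1 alternative, those of IL1B in SkBr3/Lap, IL1RN in both clones, and IL33 and the dimmer IL1R1 probe in BT474/Lap. The brightest IL1RAP probe stayed at 2.11 to 2.37 in SkBr3/Lap and 1.41 to 2.12 in BT474/Lap. The count of member genes higher in SkBr3/Lap was 2, and 1 with normexp correction, with 16 added, at 3-fold or among genes well above background on all 4 arrays, since IL1RN dropped out. At 3-fold, BT474/Lap had 1 member higher and 0 lower. Of the genes in the 4 lists, 4 were lower in SkBr3/Lap, and 2 with the median, with quantile normalization, with normexp or at 3-fold. In BT474/Lap 4 were higher, and 1 with normexp and 2 with 16 added, at 3-fold or among genes well above background on all 4 arrays. In BT474/Lap 5 were lower, and 3 with normexp or with that stricter filter, under which 7 in place of 16 were higher in SkBr3/Lap. The cause was not tested. Scaling by the median moved the median log2 fold change of all named genes in SkBr3/Lap from -0.05 to 0.11, that in BT474/Lap from -0.08 to -0.29, and the share of higher genes among those changed at least 2-fold in BT474/Lap from 62.4% to 45.5%. In limma 901 probes had an unadjusted p under 0.05, 308 without a block, 457 with the slide as a block and 2055 without the filter, and 0 passed adjustment in each. The block on the cell line in limma pairs each clone with its parent. Other than by this block, no paired analysis was possible because every group has only a replicate numbered 1. For the same reason no replicate could be left out. Signals near background, as for IL1B, IL1RN in SkBr3 and IL33, limit what these arrays show.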
